A study of Homo sapiens with 40 samples.

Results

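The MHC class II genes described here are HLA-DRA, HLA-DPA1, HLA-DPB1, HLA-DQA1, HLA-DQB1, HLA-DMA, HLA-DMB, HLA-DOB and CD74, together with CIITA, the transcriptional coactivator that switches this group of genes on. A probe belonged to a member when the platform annotation gave that gene symbol alone. By this rule 9 of the 10 members had probes, 54 of the 15246 probes on the array: 12 for CD74, 11 for CIITA, 7 for HLA-DMB, 6 for HLA-DQA1, 5 for HLA-DRA, 4 each for HLA-DPA1, HLA-DPB1 and HLA-DQB1, and 1 for HLA-DOB. HLA-DMA had 0 probes and is not measured here. Each gene is the mean of its probes, and the 9 measured members were set against 9681 features, each a named gene or a probe without a gene symbol.

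The study hybridised 40 spotted 2-colour lymphochip arrays, on which RNA from cells expressing a short hairpin against CASP10 (caspase-10) was compared with RNA from the same line without it. The established lines OCI-Ly19 (2 arrays) and OCI-Ly7 (2 arrays) are B-cell lymphoma lines used as controls, and SKMM1 (16 arrays), H929 (12 arrays) and KMS12 (8 arrays) are multiple myeloma lines. All carried a retroviral, doxycycline-inducible shCasp10-2, or shCasp10-3 on 4 arrays each of H929 and KMS12, after puromycin selection. Cells were induced with 20 ng/ml doxycycline for 1 to 5 days and labelled with Cy5, against uninduced cells of the same day labelled with Cy3. On 4 of the SKMM1 arrays, days 1 to 4, the Cy3 channel instead held doxycycline-treated cells with the control hairpin shCtrl. Only on those 4 arrays did both channels receive doxycycline; on the others hairpin and doxycycline cannot be told apart. The days of 1 line, hairpin and repeat form a course, the unit of replication here, and each lymphoma line gave 1 course. The titles number repeats only for SKMM1 and H929. The 2 KMS12 courses differ in hairpin, and a group of 1 course takes its spread from the other groups. The p-values measure the spread between these samples, which may be technical.

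MHC class II molecules are pairs of an alpha and a beta chain that show peptides to CD4 T cells. CD74, the invariant chain, binds new alpha-beta pairs and fills their groove, HLA-DM exchanges its remnant for antigenic peptide, and HLA-DO restrains HLA-DM in B cells. B cells express these genes through CIITA, which does not bind DNA itself but is recruited by factors bound to the X and Y boxes of their promoters. Plasma cells, from which myeloma arises, normally silence CIITA, while B-cell lymphomas commonly keep class II expression. The values here are log2 ratios between 2 channels, so they give differences and no level, and neither class II expression nor the labelled cell type of a line could be checked from them.

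The promoters that CIITA acts on are shown first, where a sequence was at hand. RefSeq promoter sequences (GRCh38.p14) were matched by symbol for 8 of the 10 members. HLA-DRA and CIITA had none, so HLA-DRA, among the members lowest in OCI-Ly19, is not covered. Each window of 60 bases below is written in the gene's own direction. Capitals mark the Y-box core ATTGG and the X-box pattern CCNAGNNNNNNATG. In CD74 the core lies on the other strand and reads CCAAT. The X-box pattern was chosen after these sequences had been read. HLA-DPA1 was searched but held neither ATTGG nor the X-box pattern on either strand, so no window is shown for it. The promoters of CD74 and HLA-DQA1, the lowest members in OCI-Ly19, held ATTGG but not the X-box pattern.
HLA-DOB: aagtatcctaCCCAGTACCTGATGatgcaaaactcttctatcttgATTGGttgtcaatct
HLA-DMA: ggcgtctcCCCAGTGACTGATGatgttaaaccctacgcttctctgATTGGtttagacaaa
HLA-DMB: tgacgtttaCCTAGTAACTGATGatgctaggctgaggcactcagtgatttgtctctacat
HLA-DQB1: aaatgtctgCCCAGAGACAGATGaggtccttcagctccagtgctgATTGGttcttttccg
HLA-DPB1: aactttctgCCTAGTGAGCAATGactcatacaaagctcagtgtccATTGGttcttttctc
HLA-DQA1: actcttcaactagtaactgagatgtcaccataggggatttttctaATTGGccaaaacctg
CD74: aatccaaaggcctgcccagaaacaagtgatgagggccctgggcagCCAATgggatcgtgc

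The windows lie at chr6:32817086-32817145 for HLA-DOB, chr6:32953162-32953221 for HLA-DMA, chr6:32941069-32941128 for HLA-DMB and chr6:32666731-32666790 for HLA-DQB1, all on the minus strand. Those of HLA-DPB1, at chr6:33075846-33075905, and HLA-DQA1, at chr6:32637293-32637352, are on the plus strand, and that of CD74, at chr5:150412949-150413008, is on the minus strand. In HLA-DOB, HLA-DMA, HLA-DQB1 and HLA-DPB1 the X-box pattern was followed within 40 bases by ATTGG, with the ATTGG core 98, 79, 88 and 99 bases before the annotated start. That arrangement stood in 41 of the 35116 RefSeq promoters of 300 bases searched on both strands, a share of 0.117%. Since the X-box pattern was chosen after reading the member sequences, its counts among the members are no test against such shares. Taken alone, ATTGG on either strand is common: 34.6% of all promoters held it, as did those of 7 of the 8 members. The longer TGATTGG, which contains ATTGG, stood in 3 of the 8 members (HLA-DMA, HLA-DOB and HLA-DQB1) against 6.95% of promoters, and the X-box pattern in 5 of the 8 against 3.1%. The string ATGCAAA was found only in HLA-DOB among the 8, directly after the X-box pattern, against 4.46% of all promoters. TGACG stood in 5 of the 8 members against 24.6% of promoters, GCAAC in 2 of the 8 against 33.6%, and CTAGCAA in 0 of the 8 against 2.25%. A match describes these letters and is not a site.

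Some arrays stood apart before any member was looked at. On 12 of the 40 arrays over 10% of probes had a log ratio beyond 3 in either direction; they are called wide here. Of the 780 pairs of arrays, 87 had a Pearson's r below -0.3 across all probes, down to -0.517, and 9 pairs among the other 28 arrays did so, down to -0.472. The sign of such arrays is not settled by the values. The results below use the 28 arrays that were not wide, and the main counts of members above 0 are also given with all arrays and with the sign of SKMM1 repeat 2 or 3 turned. All 4 arrays of SKMM1 repeat 2 were wide and are left out. CASP10, the target of the hairpins, averaged -0.27 (SE 0.18, 7 courses) over the myeloma lines, and limma did not call it. That SE also takes in the difference between the lymphoma lines, 1 group in the fit, with CASP10 at 1.50 in OCI-Ly7 and -0.06 in OCI-Ly19. The myeloma course means of CASP10 ranged from -0.52 in KMS12 with shCasp10-2 to -0.08 in H929 repeat 2 and 0.03 in H929 with shCasp10-3. The values of those 2 H929 courses thus show little or no lowering of the target.

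The myeloma lines gave no class II response that passed the test. Over 7 courses and 16 arrays of days 2 to 4, with the lines weighted equally, limma called 0 of the 9 members and 0 of the 9681 features (0% of features, with 1148 at an unadjusted p under 0.05, or 11.9%). The spread in this fit also holds the difference between OCI-Ly7 and OCI-Ly19, which were 1 group in it. CD74 was 0.10 and -1.74 in these lines, and HLA-DOB 1.12 and -0.34. The SEs and p-values are thus not those of the myeloma courses alone, here and in the line, hairpin and shCtrl fits below. All 9 members were above 0 in the myeloma mean, against 53.1% of all features. That count rests on the sign of the SKMM1 courses and on the arrays used: it was 2 of 9 with all arrays (HLA-DPB1 and HLA-DQB1), 9 of 9 with all arrays and repeat 2 turned, 2 of 9 with repeat 3 turned (HLA-DPB1 and HLA-DOB) and 8 of 9 without repeat 3. The chains that present peptide were close to 0: HLA-DRA, the alpha chain of HLA-DR, averaged 0.03 (SE 0.16; 95% interval -0.34 to 0.41), HLA-DQA1 0.13 (SE 0.15), HLA-DQB1 0.08 (SE 0.12), HLA-DPA1 0.19 (SE 0.27) and HLA-DPB1 0.23 (SE 0.19). CD74 averaged 0.19 (SE 0.22), HLA-DMB 0.13 (SE 0.13) and CIITA 0.19 (SE 0.23). HLA-DOB stood at 0.59 (SE 0.18; 95% interval 0.16 to 1.01), higher than 97.0% of features.

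**Figure D1:**
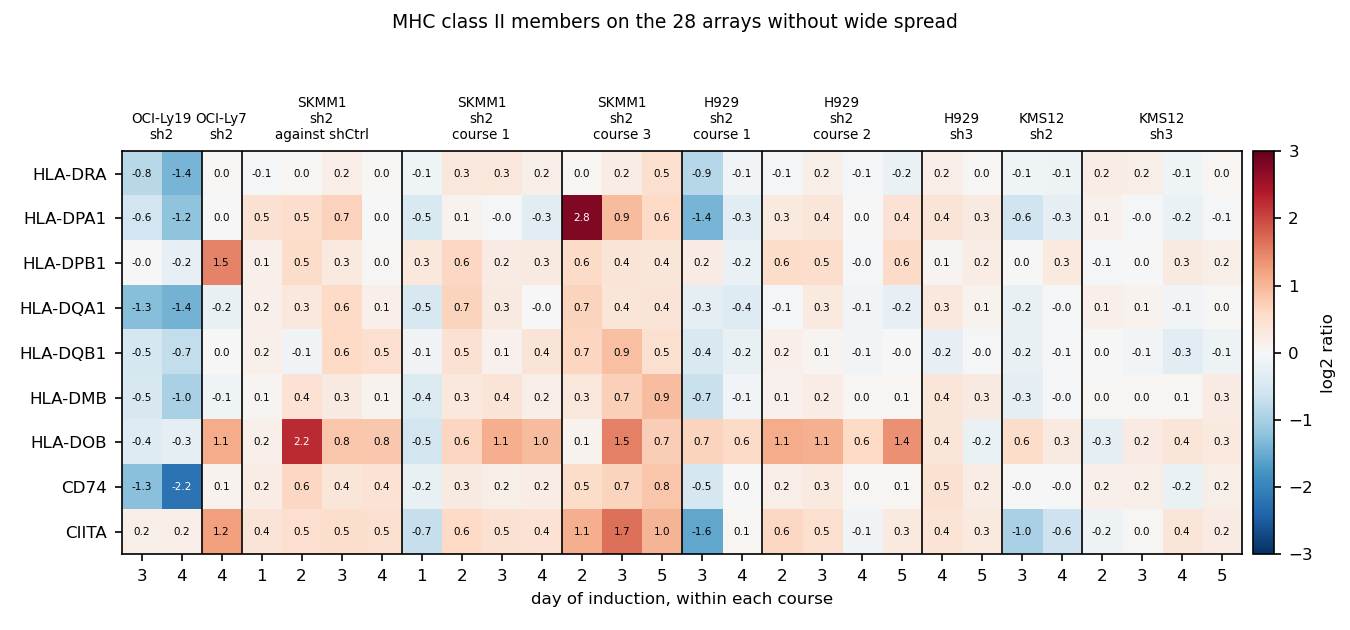
Log2 ratios of the 9 measured members (rows) on the 28 arrays that were not wide (columns, grouped by course and ordered by day of induction; sh2 and sh3 are shCasp10-2 and shCasp10-3). Blue is lower and red higher in the Cy5 channel, and the colours end at 3 in each direction: OCI-Ly19 is blue in most rows, down to -2.23 for CD74, while HLA-DOB is red on most myeloma arrays.

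HLA-DOB, the beta chain of HLA-DO, was the member with the largest mean in the myeloma lines. Its single probe read 0.64, 1.10 and 0.96 in SKMM1 repeat 1 (days 2, 3 and 4) and 0.10 and 1.52 in repeat 3 (days 2 and 3). In H929 it read 0.66 and 0.57 on days 3 and 4 of repeat 1, 1.12, 1.07 and 0.59 on days 2, 3 and 4 of repeat 2, and 0.37 on day 4 with shCasp10-3. In KMS12 it read 0.56 and 0.28 on days 3 and 4 with shCasp10-2, and -0.28, 0.25 and 0.36 on days 2, 3 and 4 with shCasp10-3. Day 2 of KMS12 with shCasp10-3 was thus the single value below 0 among these 16 arrays. The 7 course means lay between 0.11 and 0.93 and all were above 0, as were those of HLA-DPB1, between 0.03 and 0.48. Among all features, 2.53% had 7 of 7 course means above 0.

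How far HLA-DOB passed a test depended on the unit and on the arrays. On course means its adjusted p by limma was 0.33. On the 16 single arrays it averaged 0.60 (SE 0.17) with the course as a random block, adjusted p = 0.062 by limma, where 1.71% of features were called, and 0.61 (SE 0.13) with no block, adjusted p = 0.0062, where 10.6% of features were called. With all arrays kept it averaged -0.05 (SE 0.74), since its probe ranged from -7.24 to 5.84 on the 12 wide arrays. With the sign of SKMM1 repeat 3 turned it averaged 0.32 (SE 0.25; adjusted p = 0.79 by limma). Outside the days averaged, the day 1 array of SKMM1 repeat 1 read -0.54 and the day 5 array of H929 with shCasp10-3 read -0.20. The other day 5 arrays that were not wide read 0.75 in the course of SKMM1 repeat 3, 1.37 in that of H929 repeat 2 and 0.30 in KMS12 with shCasp10-3.

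**Figure D2:**
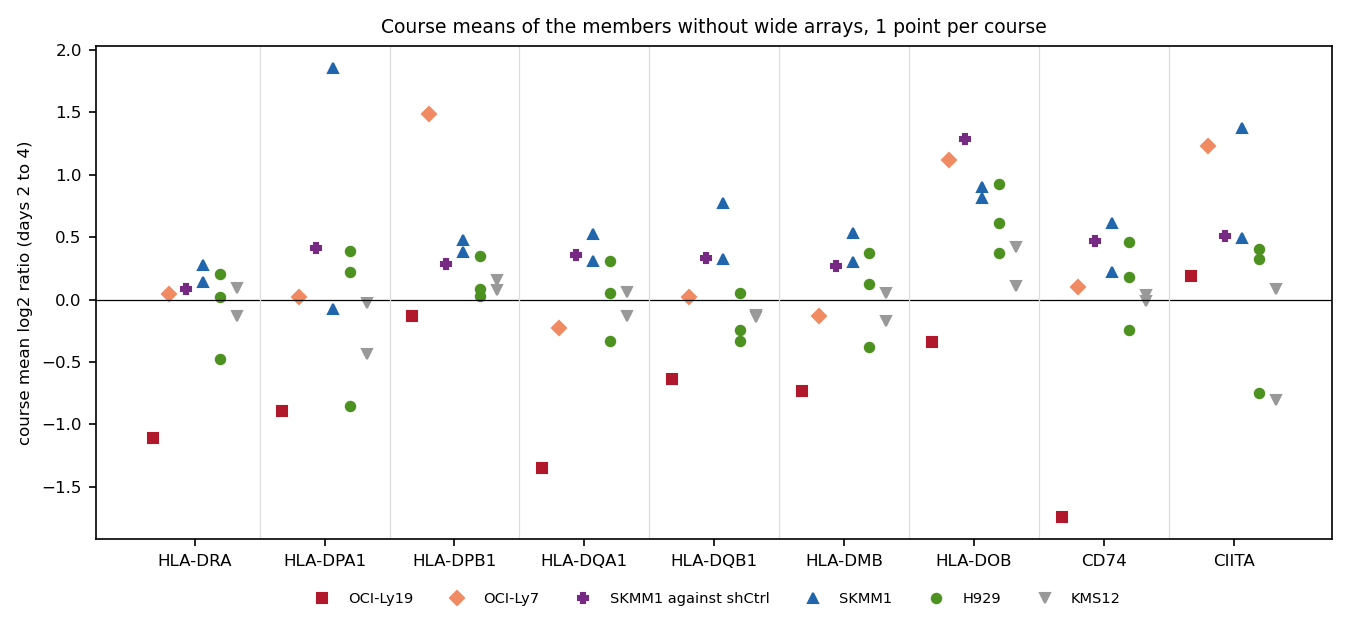
Course means over days 2 to 4 (log2 ratio, vertical axis) of the 9 members, 1 point per course, without wide arrays; there are no error bars because the points are the replicates. Courses of OCI-Ly19 and OCI-Ly7 hold days 3 and 4 and day 4. HLA-DOB is above 0 in all 7 myeloma courses, and OCI-Ly19 (red squares) lies below every other course for CD74, HLA-DRA and HLA-DQA1.

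With signs as deposited and without wide arrays, all 9 members averaged above 0 in SKMM1 over 2 courses and 5 arrays, from 0.21 for HLA-DRA to 0.94 for CIITA, with a median of 0.43 against 0.14 over all features, and 60.9% of features were above 0. With the sign of repeat 3 turned 2 of 9 were above 0 (HLA-DRA and HLA-DOB), with HLA-DPA1 at -0.97 and CIITA at -0.44. With all arrays 2 of 9 were above 0 (HLA-DPB1 and HLA-DQB1), with HLA-DMB at -0.55 and CD74 at -0.53, and with all arrays and repeat 2 turned 9 of 9 were. The direction of the SKMM1 values is therefore not settled. Limma called 0 members and 0 features (0%), while HLA-DQB1 at 0.55 (SE 0.21) and HLA-DOB at 0.86 (SE 0.33) had an unadjusted p under 0.05, as did 13.2% of features on the higher side. On single arrays with no course block limma called HLA-DQB1, HLA-DMB, HLA-DOB and CIITA, along with 23.1% of all features, and with the course as a random block it called 0 members and 4.98% of features.

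The 2 SKMM1 courses did not look alike for some members. CIITA read 0.59, 0.45 and 0.44 on days 2, 3 and 4 of repeat 1, against 1.09 and 1.66 on days 2 and 3 of repeat 3. HLA-DPA1, the alpha chain of HLA-DP, read 0.12, -0.04 and -0.31 in repeat 1 and 2.77 and 0.94 in repeat 3. For both genes the higher values are those of repeat 3, as they were for CD74 and HLA-DQB1. For HLA-DRA, HLA-DPB1, HLA-DQA1, HLA-DMB and HLA-DOB the values of the 2 repeats crossed. The share of all features that differ so between the repeats was not counted. On the arrays of repeat 3, 5.48% and 7.48% of probes were above 3. The part of that tail in the member values was not tested. The median of 12 mature B-cell markers lay between 0.43 and 0.59 and that of 7 myeloid and dendritic markers between 0.66 and 1.07 on the 3 arrays of repeat 3 that were not wide, and between -0.38 and 0.20 and between -0.15 and 0.23 on the 4 arrays of repeat 1. Without repeat 3, which leaves 1 course assumed to vary like the other groups, HLA-DPA1 averaged -0.08, CIITA 0.49 and HLA-DOB 0.90 in SKMM1, and limma called 0 members and 0 features.

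Set against shCtrl, where both channels had doxycycline, all 9 members of SKMM1 again averaged above 0, as did 53.1% of features. HLA-DOB read 0.16, 2.24, 0.82 and 0.81 on days 1 to 4. CIITA read 0.39, 0.50, 0.54 and 0.49, and CD74 read 0.21, 0.62, 0.36 and 0.43. All 12 of these values were above 0, and HLA-DPA1, HLA-DPB1, HLA-DQA1 and HLA-DMB were also above 0 on 4 of 4 arrays, as were 28% of all features. HLA-DRA and HLA-DQB1 were above 0 on 3 of 4. On these arrays the median of 9 T- and NK-cell markers lay at -0.48, -0.64, -0.61 and -0.49, that of 14 MHC class I genes at -0.33, -0.37, -0.26 and 0.04, and that of 12 mature B-cell markers between 0.00 and 0.05; their part in the member values was not tested. In the course mean of days 2 to 4, a single course assumed to vary like the others, HLA-DOB averaged 1.29 (SE 0.47) with an adjusted p of 0.44 by limma, and 0 of 9 members were called. The fit called 1 feature (0.0103%), a probe without a gene symbol, and 994 features at an unadjusted p under 0.05. On single arrays with no course block HLA-DOB was called at the same mean with an SE of 0.30, as were 15.5% of features.

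H929 and KMS12 had members on both sides of 0. Of all features 42.3% averaged above 0 in H929 and 33.6% in KMS12, and the member count of KMS12 is close to that share. In H929, 5 of 9 members averaged above 0 over 3 courses and 6 arrays, from -0.17 for HLA-DQB1 to 0.64 (SE 0.27) for HLA-DOB, and limma called 0 of 9681 features (0%; 457 at an unadjusted p under 0.05). In KMS12, 3 of 9 averaged above 0 over 2 courses and 5 arrays, from -0.36 (SE 0.41) for CIITA to 0.26 (SE 0.33) for HLA-DOB, again with 0 calls (0%; 415 at an unadjusted p under 0.05). CD74 averaged 0.13 (SE 0.33) in H929 and 0.01 (SE 0.40) in KMS12. With all arrays 0 of 9 members were above 0 in H929, where HLA-DOB averaged -0.32 (SE 1.19), and 2 of 9 in KMS12.

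Differences between the myeloma lines did not pass the test for any member. SKMM1 minus H929 was largest for HLA-DPA1, 0.97 (SE 0.65), and CIITA, 0.94 (SE 0.53), while HLA-DQB1, at 0.72 (SE 0.28), was the member with an unadjusted p under 0.05. SKMM1 minus KMS12 was 1.29 (SE 0.59) for CIITA and 0.68 (SE 0.30) for HLA-DQB1, and H929 minus KMS12 was between -0.06 and 0.37 for all 9. The SKMM1 differences depend on the sign of repeat 3. With it turned SKMM1 minus H929 was -0.88 for HLA-DPA1 and -0.43 for CIITA, and 1 of 9 members was above 0 in each SKMM1 difference. Without repeat 3 SKMM1 minus H929 was 0.01 for HLA-DPA1 and 0.50 for CIITA. All 9 members then stayed above 0 in both SKMM1 differences, with medians of 0.26 (minus H929) and 0.35 (minus KMS12). With repeat 3 as deposited the medians were 0.38 and 0.48, and 63.5% and 64.6% of features were above 0. With all arrays the members above 0 numbered 9 in SKMM1 minus H929, 2 in SKMM1 minus KMS12 and 0 in H929 minus KMS12. Limma called 0 features (0%) in each of these 3 comparisons, with 699, 1240 and 196 at an unadjusted p under 0.05. The hairpins shCasp10-3 and shCasp10-2, compared within H929 and KMS12, differed by -0.35 (SE 0.50) for HLA-DOB and 0.75 (SE 0.56) for CIITA, with 0 calls (0%; 416 at an unadjusted p under 0.05).

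Over the days of induction no member changed by limma in the 21 myeloma arrays that were not wide, with the course as a block (0 features called, 0%; 990 at an unadjusted p under 0.05). HLA-DMB had the largest estimate relative to its error, 0.11 per day (SE 0.05), and HLA-DOB 0.17 per day (SE 0.10). With all 32 arrays limma called HLA-DMB at 0.35, CD74 at 0.36 and CIITA at 0.55 per day, along with 11.7% of all features. That fit includes the day 1 and 2 arrays of H929 repeat 1 and of KMS12 with shCasp10-2, on which CIITA read from -3.97 to -2.42.

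In OCI-Ly19 class II genes lay below 0 together on both arrays. CD74 read -1.26 on day 3 and -2.23 on day 4. HLA-DQA1 read -1.27 and -1.43, HLA-DRA -0.84 and -1.39, and HLA-DPA1 -0.58 and -1.20. HLA-DQB1 read -0.53 and -0.74, and HLA-DMB, a chain of the peptide exchanger, -0.49 and -0.97. These 6 genes lay below 0 on both days. On both days CD74 and HLA-DQA1 were lower than on any of the other 26 arrays that were not wide, whereas the day 3 value of HLA-DRA was not, since day 3 of H929 repeat 1 read -0.86. In the OCI-Ly19 course mean 8 of 9 members were below 0, against 47.8% of all features. The member median was -0.53 and -0.97 in OCI-Ly19, with 8 of 9 members below 0 on each day. Single myeloma arrays came near the first of these: it was -0.50 on day 3 of H929 repeat 1, with 7 of 9 below 0, and -0.43 on day 1 of SKMM1 repeat 1, with 8 of 9 below 0. The next arrays of those courses, day 4 of the H929 course and day 2 of the SKMM1 course, had medians of -0.09 and 0.45. HLA-DOB read -0.39 and -0.30, HLA-DPB1 -0.01 and -0.25, and CIITA 0.18 and 0.19. The regulator thus lay on the other side of 0 from its targets on both arrays, with a wide interval in the fit (0.19; 95% interval -1.30 to 1.67).

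The 5 members HLA-DRA, HLA-DPA1, HLA-DQA1, HLA-DQB1 and CD74 were below -0.5 on both arrays, as were 12.4% of all features. In the course mean, 1 course assumed to vary like the others, CD74 averaged -1.74 (SE 0.31; adjusted p = 0.070), HLA-DQA1 -1.35 (SE 0.28; adjusted p = 0.082) and HLA-DRA -1.11 (SE 0.29; adjusted p = 0.12) by limma. These 3 had an unadjusted p under 0.05, as did 12% of features on the lower side, and 0 of 9 members were called among 81 features called (0.837%; 2 higher and 79 lower). On the single arrays with the course as a random block, CD74, HLA-DQA1 and HLA-DRA were called lower (adjusted p = 0.0022, 0.0020 and 0.017 by limma), where 10.9% of features were called. Arrays of 2 days of 1 course may come from 1 culture. This comparison was singled out after the member values had been seen.

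Set against the myeloma lines on days 3 and 4, OCI-Ly19 was lower for all 9 members, and 53.7% of features were below 0. CIITA kept its sign in only 9 of 17 alternative settings. With all arrays, with repeat 3 of SKMM1 turned and without that repeat it moved to the other side of 0, leaving 8 of 9. The OCI-Ly19 minus myeloma difference was -1.92 (SE 0.34; adjusted p = 0.095 by limma) for CD74, -1.42 (SE 0.31) for HLA-DQA1, -1.15 (SE 0.31) for HLA-DRA, -1.09 (SE 0.30) for HLA-DOB and -0.05 (SE 0.65) for CIITA. No member was among the 23 features called (0.238%; 1 higher and 22 lower). On single arrays with the course as a random block HLA-DRA, HLA-DQA1, HLA-DOB and CD74 were called, with adjusted p of 0.029, 0.0038, 0.011 and 0.0031 by limma, where 7.11% of features were called. With all arrays kept, limma called 0 features in either OCI-Ly19 comparison, although the OCI-Ly19 arrays themselves were the same.

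**Figure D3:**
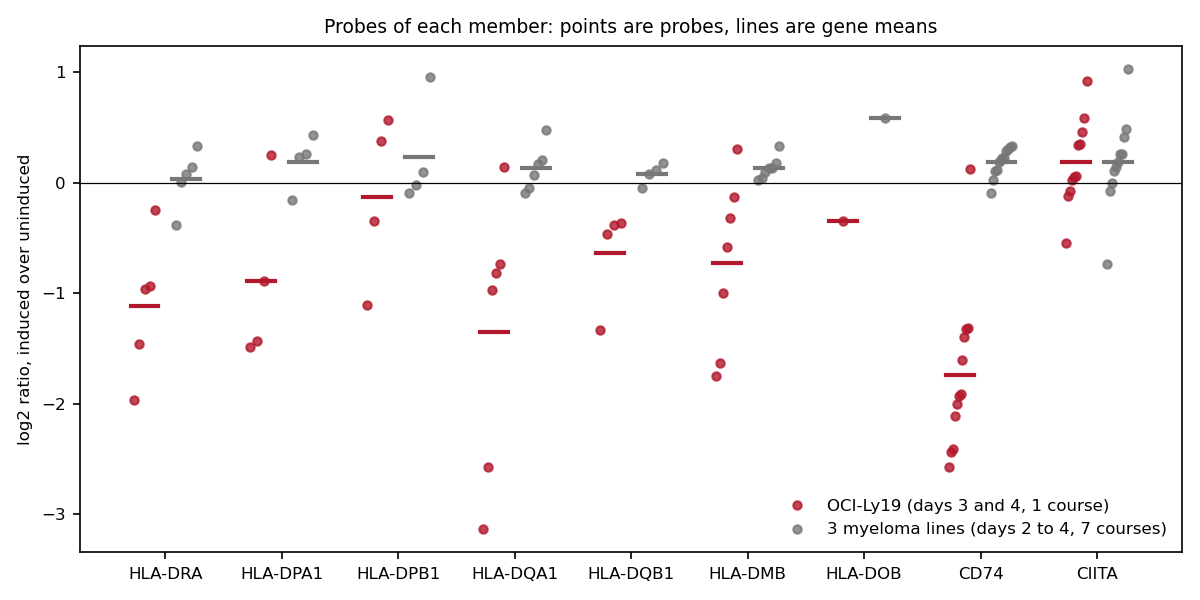
Log2 ratios (vertical axis, induced over uninduced) of each member's probes, 1 point per probe, with a line at the gene mean. OCI-Ly19 is in red, and the mean of the myeloma lines, weighted equally and drawn from 7 courses, is in grey. In OCI-Ly19 11 of 12 CD74 probes and 5 of 5 HLA-DRA probes are below 0, while 8 of 11 CIITA probes are above 0.

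Single probes of a gene did not all read the same. In OCI-Ly19, 11 of 12 CD74 probes were below 0, with a median of -1.92 and a highest value of 0.12. All 5 HLA-DRA probes were below 0, from -1.97 to -0.25. Of the 6 HLA-DQA1 probes 5 were below 0, from -3.14 up to a highest value of 0.14, and HLA-DPB1 had 2 of 4 below 0. Fitted one by one, 9 of the 54 member probes were called lower by limma, 4 of them for CD74 and 2 for HLA-DQA1, against 2.56% of all probes called lower, and 40 of 54 were below 0. The share of all probes below 0 in OCI-Ly19 was not counted. Across the 28 arrays the median correlation between probes of 1 gene was 0.54 for CD74, 0.48 for HLA-DPA1 and 0.41 for HLA-DQA1. It was 0.24 for CIITA, 0.19 for HLA-DRA and 0.01 for HLA-DPB1. Probes of class II genes can cross-hybridise with close relatives, such as the other HLA-DQ and HLA-DR genes, and this was not tested.

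OCI-Ly7, the other lymphoma line, gave 1 array that was not wide, day 4, and its tests assume that it varies like the other lines. CD74 read 0.10 there as the mean of 12 probes, of which 10 were below 0, with a median of -0.27 and 1 probe at 4.57. HLA-DRA read 0.04, HLA-DQA1 -0.23 and HLA-DMB -0.13. The median CD74 probe was thus below 0 in both lymphoma lines, at -0.27 in OCI-Ly7 and -1.92 in OCI-Ly19. HLA-DPB1, the beta chain of HLA-DP, read 1.49 and was called by limma (SE 0.21, adjusted p = 0.014), as were 543 features (5.61%; 540 of them higher). Its 4 probes ran from -0.16 to 4.75, with a median of 0.68, and 1 of the 4 was called when fitted one by one. HLA-DPB1 was not called with all arrays (adjusted p = 0.40) or with the sign of SKMM1 repeat 3 turned (adjusted p = 0.087). HLA-DOB, with 1 probe, read 1.12. CIITA read 1.23 as the mean of 11 probes, of which 10 were above 0, with a median of 0.60 and 1 probe at 5.86. Neither gene was called. On single arrays with the course as a random block, which again takes the spread from other lines, limma called HLA-DPB1 and HLA-DOB (adjusted p = 0.0019 and 0.012), as it did 8.85% of features. CASP10 itself read 1.50 on that array as the mean of 6 probes, of which 5 were above 0. They ran from -0.25 to 4.75, with a median of 0.67 and the second highest at 2.99. The array labelled shCasp10-2 thus showed no lowering of the targeted gene in its mean or median probe. Of all probes on that array, 7.95% were above 3. In OCI-Ly19 CASP10 read 0.12 and -0.24.

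The planned comparison of the 3 myeloma lines with both lymphoma lines together, on days 3 and 4, therefore averages unlike values. CD74 was 1.00 (SE 0.47) and HLA-DQA1 0.86 (SE 0.33) in myeloma minus lymphoma, and HLA-DPB1 was -0.48 (SE 0.39). Limma called 0 members and 0 features (0%; 1032 at an unadjusted p under 0.05). Without OCI-Ly19 it called 401 features, with HLA-DPB1 among them at -1.29 (adjusted p = 0.036), and without OCI-Ly7 it called 23.

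Of the other genes of the class II pathway, 37 of 54 listed were measured. In the myeloma lines 16 were above 0 and 21 below, with a median of -0.02 against 0.02 over all features and against 0.19 for the members, and limma called 0. The lowest p were those of RFXANK, a subunit of the RFX complex that binds the X box, at -0.36 (SE 0.12), IRF1, an interferon-induced activator, at -0.29 (SE 0.12), and SOCS1, an inhibitor of cytokine signalling, at -0.36 (SE 0.16). HLA-DRB1, the partner chain of HLA-DRA, averaged 0.33 (SE 0.18). In OCI-Ly19 HLA-DRB1 read -1.13 and -1.45, next to HLA-DRA, and averaged -1.29 (SE 0.35).

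In OCI-Ly19 22 of these 37 pathway genes were below 0, with a median of -0.14 against -0.73 for the members and 0.03 over all features, and limma called 0 on course means. IFI30, a thiol reductase of antigen processing, averaged -1.06 (SE 0.28), and the lysosomal protease CTSS, which trims the invariant chain, -0.86 (SE 0.23). LGMN, another lysosomal protease, lay at 1.25 (SE 0.36) and CTSB at 0.92 (SE 0.28). The histone deacetylases HDAC2 at -1.72 (SE 0.26) and HDAC1 at -1.50 (SE 0.25) had the lowest p of the list, adjusted p = 0.054 and 0.063 by limma.

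MHC class I genes and their helpers, which load peptides from the cytosol, gave values below 0 in both settings. In the myeloma lines 12 of 14 measured were below 0, with a median of -0.14 and 0 called by limma; PSMB9, an interferon-induced proteasome subunit, averaged -0.26 (SE 0.09). In OCI-Ly19 9 of 14 were below 0, with a median of -0.35, HLA-B at -1.10 (SE 0.23) and 0 called. Markers of other cell types, averaged over the myeloma lines, had list medians of -0.06 for 8 plasma-cell genes, -0.02 for 12 mature B-cell genes, -0.20 for 9 T- and NK-cell genes and 0.06 for 7 myeloid and dendritic genes, with 0 called. Single courses lay on both sides of those means. Besides the SKMM1 values above, the mature B-cell median was -1.07 on day 3 of H929 repeat 1, and -0.55 on day 3 of KMS12 with shCasp10-2, where the myeloid and dendritic median was -1.46; 7 of 9 class II members were below 0 on both arrays. In OCI-Ly19 the medians were -0.02, -0.35, -0.11 and 0.20 for the same lists, with 9 of the 12 mature B-cell genes below 0 and 0 called. CD79B, a chain of the B-cell receptor complex, averaged -1.12 (SE 0.27). The part of these markers in the class II values was not tested.

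Across the 28 arrays CD74 and HLA-DRA had the most alike patterns among the members, with Pearson's r = 0.90, and 0.71 over the 21 myeloma arrays. These are descriptions over arrays that share courses, lines and scan-wide spread, and carry no p. Of 4604 named genes, those most like HLA-DRA were CD74, HLA-DMB (r = 0.84), HLA-DQA1 (0.83), SRP72 (0.83) and SHC4 (0.82), and the 5 most like CD74 were the same genes with HLA-DRA in its own place. Over the 21 myeloma arrays r with CD74 was 0.30 for SRP72 and 0.40 for SHC4, against 0.88 for HLA-DMB. HLA-DPB1 and HLA-DOB were least like the rest, with r between 0.11 and 0.40 for HLA-DPB1 and between 0.13 and 0.45 for HLA-DOB. Of the named genes, SWAP70 (r = 0.72), CD180 (0.66), FAM111B (0.65), ISL1 (0.64) and N4BP2L2 (0.62) came closest to HLA-DOB.

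The genes most like CIITA across arrays were not its targets. Its r over 28 arrays ran from 0.25 with HLA-DQA1 to 0.61 with HLA-DPA1, with 0.53 for HLA-DMB, 0.48 for HLA-DQB1, 0.30 for HLA-DRA and 0.29 for CD74, against 0.94 with BACH2, 0.93 with CCL20, 0.92 with EPHA5, 0.91 with GRAP and 0.91 with FPR1. With the balance of extreme log ratios on an array, the percent of probes above 3 minus the percent below -3, CIITA had r = 0.86 (Spearman's rho 0.84), larger in size than that of 97.9% of features. The other members had r between 0.16 and 0.56 with that balance. Over the 21 myeloma arrays r of CIITA was 0.85 with HLA-DMB, 0.74 with CD74 and 0.87 with the balance. On the same arrays r with the balance was 0.79 for HLA-DMB, 0.73 for CD74, 0.72 for HLA-DQB1 and 0.70 for HLA-DPA1. For the remaining members it lay between 0.03 and 0.40. In those arrays the likeness of HLA-DMB and CD74 to CIITA and to the balance thus cannot be told apart.

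**Figure D4:**
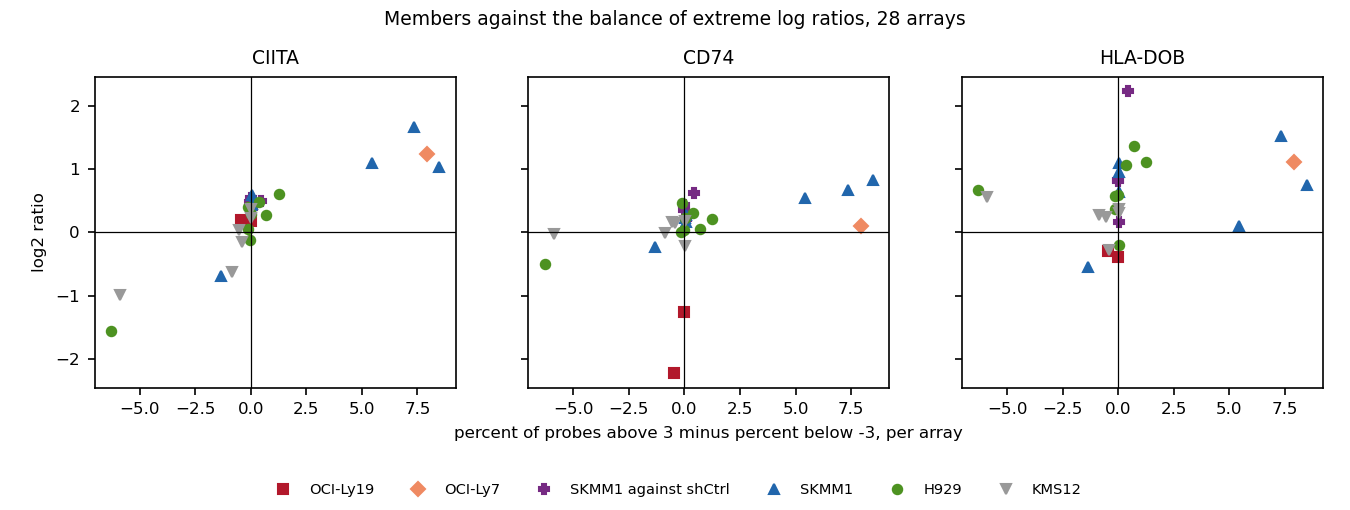
Log2 ratios of CIITA, CD74 and HLA-DOB (vertical axis) against the percent of probes above 3 minus the percent below -3 on the same array (horizontal axis), for the 28 arrays that were not wide, coloured by line. CIITA runs from -1.55 to 1.66 along the axis, while the OCI-Ly19 arrays have low CD74 close to a balance of 0.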

How the data were processed

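The members and gene lists were chosen with earlier results of these data known. The authors deposited processed log ratios, read here as log2 of Cy5 over Cy3; per the labels Cy5 held induced cells. The base of the logarithm, which channel is on top, and the background and normalisation steps are not stated in the sources at hand. The table held 15246 probes and 0 missing values. The platform annotation, which is old, gave 10169 of them 1 gene symbol, 4 several and 5073 none. Signal over background is unknown without scanner intensities, and the number of arrays limits the precision. Dyes were never swapped, so any dye effect stays in each value against 0.

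Course means over days 2 to 4 (3 and 4 for comparisons with lymphoma lines), without wide arrays, were analysed in limma 3.58.1 under R 4.3.3 (lmFit, eBayes) with Benjamini-Hochberg adjustment over 9681 features at 0.05. All groups shared 1 estimate of the spread, with the lymphoma lines as 1 group unless a comparison named OCI-Ly19 or OCI-Ly7. The rule for wide arrays follows an earlier analysis of these data. Comparisons of OCI-Ly19 or OCI-Ly7 alone were added after their values were seen. The run of database numbers placed 5 arrays of days 1 and 5 in a course. Named were all members, the list genes with the lowest p and the 5 genes most like HLA-DRA, CD74, CIITA and HLA-DOB; IFI30, CTSS, LGMN, CTSB, CD79B, HLA-B and HLA-DRB1 were chosen after their values were seen. The fit was tested on simulated log ratios. Motifs were searched on both strands.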

Additional observations from a re-analysis of the deposited data

Results flagged for a closer look

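In 3 cases every course of a pair of groups lay on opposite sides of 0. How many of the 9681 features did the same was not counted, so these cases are not read as particular to the members. Of all features 60.9% averaged above 0 in SKMM1 and 66.3% below 0 in KMS12. HLA-DQA1 was above 0 in both SKMM1 courses and below 0 in both lymphoma courses, a difference of means of 1.20. HLA-DMB was so too, with a difference of 0.85. For these the SKMM1 minus lymphoma difference was not tested. HLA-DQB1 was above 0 in both SKMM1 courses and below 0 in both KMS12 courses, with a difference of 0.68 (SE 0.30) that limma did not call. With the sign of SKMM1 repeat 3 turned, its course would lie below 0 for each of these genes. Within the 7 myeloma courses no member had a course far from the others by Dixon's test.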

How the results depend on the processing

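The counts called by limma depended most on the replicate unit. On single arrays with the course as a random block they were 166 (myeloma), 482 (SKMM1), 1 (KMS12), 6 (SKMM1 minus KMS12), 335 (SKMM1 against shCtrl), 4 (shCasp10-3 minus shCasp10-2), 1 (myeloma minus lymphoma), 1051 (OCI-Ly19), 857 (OCI-Ly7) and 688 (OCI-Ly19 minus myeloma). Without a course block they were 1027, 2237, 28, 881, 1503, 4, 483, 1814, 919 and 1409 in the same order, and 3 in H929. With all arrays they were 0 against shCtrl and in both OCI-Ly19 comparisons, 91 in OCI-Ly7 and 1134 for the change per day. Turning the sign of SKMM1 repeat 2 gave 0 against shCtrl, 16 in OCI-Ly19, 358 in OCI-Ly7 and 3 in OCI-Ly19 minus myeloma; turning repeat 3 gave 0, 11, 230 and 0. With every day in the mean the counts were 0 against shCtrl, 872 in OCI-Ly19 and 497 in OCI-Ly19 minus myeloma; probe by probe they were 0, 425 and 51, and a robust prior gave 0 against shCtrl.

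Leaving out 1 course at a time gave 0 to 30 (myeloma), 0 to 217 (SKMM1), 0 to 12 (KMS12), 0 to 124 (SKMM1 minus H929), 0 to 138 (SKMM1 minus KMS12), 0 to 0 against shCtrl, 0 to 401 (myeloma minus lymphoma), 0 to 83 (OCI-Ly19), 308 to 952 (OCI-Ly7) and 0 to 46 (OCI-Ly19 minus myeloma). The highest counts of the first 2 and of the SKMM1 differences came without SKMM1 repeat 1, and 12 in KMS12 without its shCasp10-3 course. OCI-Ly19 had 0 calls without any 1 of the 5 H929 or KMS12 courses, and OCI-Ly7 308 or 314 without H929 repeat 2 or its shCasp10-3 course. The cause was not tested.

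Of the member values under these alternatives, 1938 kept direction and side of the threshold, 189 uncalled values changed sign, 40 became called, 2 lost their call and 0 called values changed sign; 49 of the sign changes came with all arrays. With the repeat number as a replicate block, SKMM1 minus H929 had 0 calls (all arrays), and same-numbered courses deviated with r = -0.60; with no replicate block the change per day had 0 calls. Without wide arrays the block could not be fitted, since 1 number was shared.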
